A study of Rattus norvegicus with 35 samples.

Results

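Tamoxifen and raloxifene, a pair of selective estrogen receptor modulators, were pooled and compared with vehicle in the hippocampus of ovariectomised rats. The members were 10 treated libraries and 5 vehicle libraries, 15 of the 35 in the series, taken by the treatment named in their labels (OVX+Tamoxifen, OVX+Raloxifene and OVX+Vehicle). All animals were female Sprague Dawley rats that had surgery at 6 months of age and a washout of 2 weeks. The vehicle animals had been ovariectomised like the treated ones, so loss of the ovaries was shared by all 15 libraries. Treatment was 1 intraperitoneal injection a day of 3.23 mg/kg tamoxifen, 9.68 mg/kg raloxifene or vehicle, and tissue was taken 7 days after treatment began. Because the doses per kg differ, the drugs are given side by side and are not ranked. Sham-operated rats and ovariectomised rats given estradiol at 0.16 mg/kg, exemestane at 0.16 mg/kg or anastrozole at 4.03 mg/kg, 5 libraries each, served as further references. The composition of the vehicle and the hour of tissue collection are not given in the sources used here.

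Selective estrogen receptor modulators bind the nuclear estrogen receptors, encoded by Esr1 and Esr2, and act as agonists in some tissues and antagonists in others. Unliganded steroid receptors are held by the chaperone Hsp90 and its partners, and the hippocampus is a brain region where estrogens are known to act on synapses, metabolism and myelin. The circadian clock, which contributes the gene that passed the test below, is a feedback loop in which the Clock and Bmal1 proteins drive genes such as Per3, Dbp and Ciart through E-box sequences, and PER and CRY proteins repress that drive.

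The 15 libraries held 6061829 to 10349372 assigned counts each. Levels are given as CPM, counts relative to the TMM-scaled total of the library, a scale on which libraries can be compared for a gene but genes cannot be compared with each other. Libraries of the series fell into 2 classes by the share of counts from Rn7sl1, the RNA component of the particle that targets secretory proteins to the endoplasmic reticulum. The share was 2.9 to 3.84% in 15 libraries and 4.47 to 6.49% in 20. All 5 raloxifene libraries and 3 of 5 tamoxifen libraries were of the low class, against 1 of 5 vehicle libraries (replicate 4), so the class was a term in the fit behind each result unless another fit is named. Class alone was associated with 7473 of 14411 genes, or 51.9%, at an adjusted p under 0.05 (edgeR quasi-likelihood test). The mean Rn7sl1 share was 3.87% in the treated and 4.48% in the vehicle libraries (exact two-sided permutation test over 3003 splits, p = 0.325, and 0.641 after adjustment over 4 library measures). The share of mitochondrially encoded transcripts was 12.7 ± 1.91% in the treated libraries (SD, n = 10) and 10.7 ± 0.952% in vehicle (n = 5). By the same permutation test its p was 0.048, and 0.192 after adjustment. This share differed by class. In the high class the 2 tamoxifen libraries were at 9.27 and 9.26%, below the 4 vehicle libraries at 11.5, 9.61, 9.67 and 11.2%. In the low class the 8 treated libraries were at 12.8 to 14.9%, above the vehicle library at 11.4%. Dentate granule cell markers summed to 353 to 459 CPM and pyramidal cell markers to 960 to 1210 CPM in the 15 libraries, so defining markers of the labelled tissue were present in all of them. Ttr, the main transcript of the choroid plexus that lies beside the hippocampus, ran from 0.495 to 2770 CPM and was above 500 CPM in 2 libraries of each of the 3 groups. The labels do not say more of the animals behind replicates, and p-values measure the spread between these libraries.

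In the edgeR fit of all 35 libraries with class 1 gene changed, the clock gene Per3, which had lower values after both drugs. It was the only gene of 14411 called in the pooled comparison at an adjusted p under 0.05 (0.00694%; edgeR quasi-likelihood test with Benjamini-Hochberg adjustment). DESeq2 with the same class term called 31 genes in the pooled comparison and 7 for raloxifene. Raloxifene alone also called 1 gene (0.00694%), again Per3, and tamoxifen alone called 0 (0%) with edgeR, where 1210 genes (8.4%) passed an unadjusted p of 0.05 and DESeq2 called 35. For raloxifene that unadjusted count was 764 (5.3%). Each drug was read against the same 5 vehicle libraries, so the drug comparisons are not independent of each other. At an unadjusted p under 0.05 the pooled comparison held 1099 genes, or 7.63% of those tested, with 613 higher (4.25%) and 486 lower (3.37%). Of these, 326 (2.26%) also had an unadjusted p under 0.05 and the same direction in each drug, 185 higher (1.28%) and 141 lower (0.978%). Without the class term 2262 genes (15.7%) were called in the pooled comparison, 1411 higher (9.79%) and 851 lower (5.91%), and 228 of the 326 (1.58% of all genes) were among them in the same direction. The genes described next are taken from those 326 or from the gene lists, and apart from Per3 none passed the adjustment in the edgeR fit of all 35 libraries with class.

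Per3 encodes a period protein of the clock's repressor arm. Its level in vehicle was 62.7, 53.1, 62.3, 63.3 and 64 CPM. It was 42.8, 48.5, 40.9, 53.6 and 55.5 CPM with tamoxifen and 45.9, 40.1, 49.7, 44.7 and 44.1 CPM with raloxifene. Of the 10 treated libraries 8 lay below the lowest vehicle library, and the other 2, both tamoxifen, lay between that library and the remaining 4. The pooled log2 fold change was -0.42 ± 0.072 (SE), with an adjusted p of 0.0198. The change was -0.36 ± 0.078 with tamoxifen (adjusted p = 0.132, edgeR) and -0.48 ± 0.087 with raloxifene (adjusted p = 0.0437, edgeR). Within the high class, 2 tamoxifen libraries averaged 45.6 CPM and 4 vehicle libraries 60.5 CPM, and within the low class 8 treated libraries averaged 46.8 CPM against 63.3 CPM in the single vehicle library. Leaving out 1 library at a time kept the fold change between -0.45 and -0.39, and Per3 passed the adjustment in 9 of 15 such fits. It missed it without tamoxifen 1 (adjusted p = 0.109), raloxifene 4 (0.0504), raloxifene 5 (0.0531), vehicle 3 (0.0922), vehicle 4 (0.315) or vehicle 5 (0.0656), by edgeR in each case.

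The promoter windows of 3 genes are shown because they belong to the groups that carry the results: Per3, the clock repressor gene Ciart, and Dnaja1, a co-chaperone gene described with the Hsp90 partners. They are RefSeq sequences of build GRCr8, 250 bases upstream of each gene's start, read 5′ to 3′ on the gene's strand. Per3 is at chr5:166777801-166778050 (minus strand), Ciart at chr2:186112247-186112496 (minus strand) and Dnaja1 at chr5:60638154-60638403 (plus strand). Capitals mark the E-box CACGTG, the D-box TTANGTAA and the heat shock element GAANNTTC, each searched on both strands, and no marked matches overlap.
Per3: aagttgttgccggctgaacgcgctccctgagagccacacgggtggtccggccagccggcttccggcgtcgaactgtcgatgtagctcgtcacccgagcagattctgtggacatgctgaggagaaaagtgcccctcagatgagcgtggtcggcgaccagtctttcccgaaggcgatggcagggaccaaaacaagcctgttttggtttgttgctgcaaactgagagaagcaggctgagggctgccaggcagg
Ciart: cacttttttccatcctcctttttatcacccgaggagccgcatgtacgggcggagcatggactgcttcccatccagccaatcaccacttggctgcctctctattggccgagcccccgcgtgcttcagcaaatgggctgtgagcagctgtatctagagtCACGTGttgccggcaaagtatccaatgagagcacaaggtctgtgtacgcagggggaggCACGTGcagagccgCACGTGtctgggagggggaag
Dnaja1: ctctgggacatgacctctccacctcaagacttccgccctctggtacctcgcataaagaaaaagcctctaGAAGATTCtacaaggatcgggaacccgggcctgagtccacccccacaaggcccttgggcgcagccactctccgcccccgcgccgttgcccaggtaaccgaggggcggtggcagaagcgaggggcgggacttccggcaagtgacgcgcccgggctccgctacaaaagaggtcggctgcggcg
The Ciart window held 3 E-boxes, starting 93, 35 and 21 bases before the gene's start. The Dnaja1 window held 1 heat shock element, starting 181 bases before it, and in the Per3 window none of the 3 motifs was found. Of the other clock genes described below as lower, Dbp, Per1 and Nr1d2 had no E-box in their windows. Outside the clock, the windows of Gstp1, Tspan13, Ube2j1, Tob2, Tomm7 and Manba were also searched and held no heat shock element. An E-box was present in 1591 of 27457 promoter windows of this length (5.79%) and in 847 of 10427 windows of tested genes (8.12%). It was present in 9 of 116 windows of the shared genes that were higher (7.76%) and in 11 of 111 of those that were lower (9.91%). For the heat shock element the shares were 4.69% of tested genes, 4.31% of the higher and 3.6% of the lower genes. The full palindromic estrogen response element was in 1 of 10427 windows of tested genes and in 0 of the windows of either shared set. Its single arm AGGTCA, searched on both strands and overlapping the full element, was in 10.2% of tested windows, 7.76% of the higher and 14.4% of the lower genes. The D-box was in 1.11% of tested windows, 0.862% of the higher and 1.8% of the lower genes. The sterol regulatory element TCACNCCAC was in 1.01, 0.862 and 0% of the same windows, and the cyclic AMP response element TGACGTCA in 2.88, 2.59 and 0.901%. These matches describe the letters of the windows and nothing about factor binding.

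The clock list held 21 tested genes, 14 with a negative and 7 with a positive pooled log2 fold change. Of all genes 51.2% were positive. In the list 5 were lower at an unadjusted p under 0.05, beside 3.37% of all genes. None was higher at that level. The list median was -0.08, beside 0.0036 over all genes tested. The members at that level were Per3, Dbp, Ciart, Per1 and Nr1d2, all of them outputs or repressors of the loop, and 4 of the 5 (all but Per1) were also lower in each drug at an unadjusted p under 0.05. Dbp, a D-box-binding output factor, was at 97.2, 77.4, 95, 82.8 and 86.9 CPM in vehicle. Its values were 70.5, 56.1, 53.7, 75.1 and 78.4 CPM with tamoxifen and 47.3, 54.2, 59.3, 58.2 and 63.8 CPM with raloxifene. Only 1 tamoxifen library reached the lowest vehicle library. The pooled log2 fold change of Dbp was -0.44 ± 0.108 (SE; adjusted p = 0.222, edgeR). Ciart, a repressor of Clock and Bmal1, was at 5.23, 5.82, 7.22, 4.57 and 6.19 CPM in vehicle. It was at 3.79, 2.99, 3.29, 5.89 and 3.56 CPM with tamoxifen and 3.24, 4.01, 4.41, 4.17 and 5.25 CPM with raloxifene, and its groups overlapped. Its log2 fold change was -0.54 ± 0.177 (SE; adjusted p = 0.408, edgeR). The log2 fold change was -0.27 ± 0.1 (SE) for Per1, a light-responsive period gene, and -0.21 ± 0.081 for Nr1d2, a heme-binding repressor. Nr1d2 depended on the class term, with a log2 fold change of 0.09 without it. The count of lower clock genes was 4 to 7 with 1 library left out, and it was 3 without the 15 libraries of the series above 500 CPM of Ttr.

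**Figure D1:**
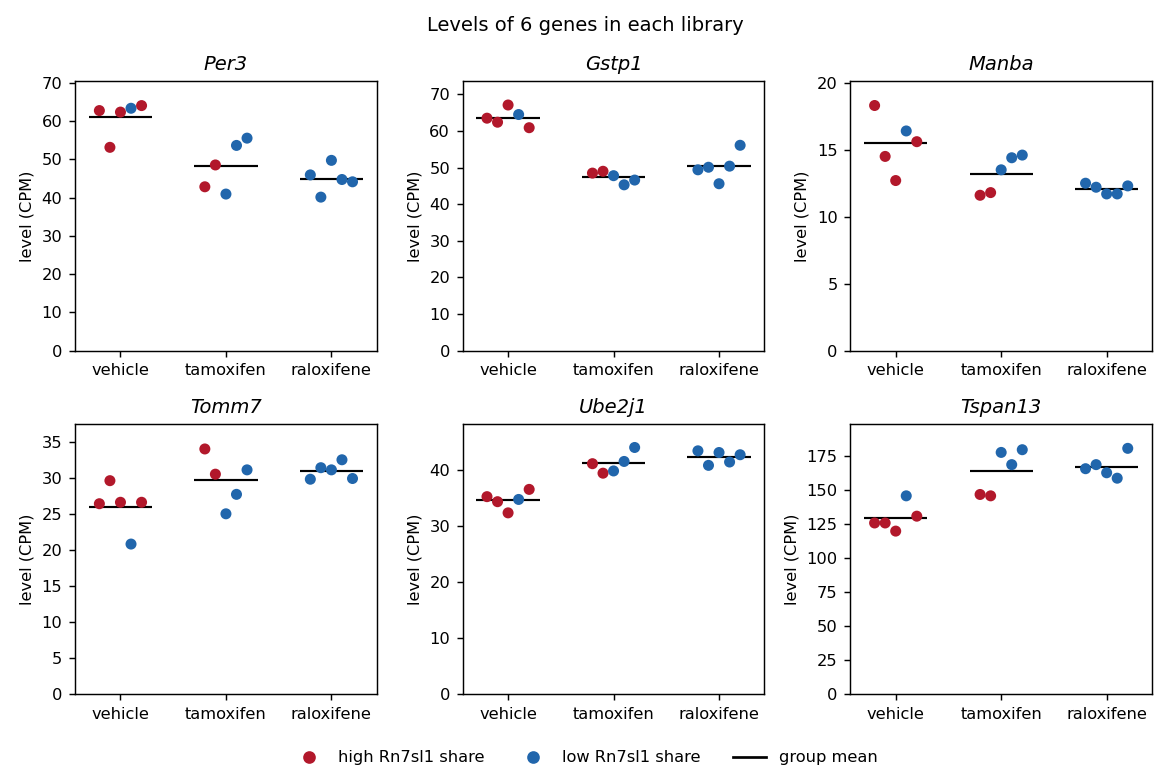
Level of Per3, Gstp1, Manba, Tomm7, Ube2j1 and Tspan13 in each library (y axis, CPM, from 0) by group (x axis). Points are libraries, red for the high and blue for the low Rn7sl1 class, and lines are group means. For Gstp1, Ube2j1 and Tspan13 the 10 treated libraries do not overlap the 5 vehicle libraries.

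Outside the clock, the 20 genes of smallest pooled p that were shared by both drugs included 8 higher and 12 lower genes. Per3 and Dbp are among them, and the adjusted p of the 19 besides Per3 ran from 0.153 to 0.226 (edgeR). For 9 of the 20 the 10 treated libraries did not overlap the 5 vehicle libraries, as they did not for 0.631% of all genes, 0.354% below and 0.278% above. The 20 were chosen by their p between these same libraries, so a share above that of all genes follows from the choice. Gstp1, a glutathione transferase that conjugates electrophiles, had 63.5, 62.4, 67.1, 64.5 and 60.9 CPM in vehicle. It had 48.5, 49, 47.8, 45.3 and 46.6 CPM with tamoxifen and 49.4, 50.1, 45.6, 50.4 and 56.1 CPM with raloxifene. Every treated library was below every vehicle library, also within each class, and the log2 fold change was -0.37 ± 0.08 (SE; adjusted p = 0.153, edgeR). Fitted on the 15 libraries alone, Gstp1 had an adjusted p of 0.0201 and Septin4 one of 0.00155, while that of Per3 was 0.0648 (edgeR). Septin4, a septin found at membranes of glia and neurons, had 151 to 165 CPM in vehicle and 109 to 131 CPM in the treated libraries, with a log2 fold change of -0.31 ± 0.078 (SE).

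Ube2j1 encodes an E2 enzyme of the ubiquitin system anchored in the endoplasmic reticulum. Its level was 35.3, 34.4, 32.4, 34.8 and 36.6 CPM in vehicle. It was 41.2, 39.5, 39.9, 41.6 and 44.1 CPM with tamoxifen and 43.5, 40.9, 43.2, 41.5 and 42.8 CPM with raloxifene. Every treated library was above every vehicle library, in both classes, and the log2 fold change was 0.25 ± 0.056 (SE; adjusted p = 0.153, edgeR). Tspan13, a tetraspanin membrane protein gene, had 120 to 146 CPM in vehicle and 146 to 181 CPM after treatment, where the groups did not overlap before rounding. Its highest vehicle library was the one of the low class and its lowest treated libraries were those of the high class, and the log2 fold change was 0.2 ± 0.046 (SE). Tomm7, a small subunit of the outer mitochondrial membrane import complex, had 26.4, 29.6, 26.6, 20.8 and 26.6 CPM in vehicle. It had 34, 30.5, 25, 27.7 and 31.1 CPM with tamoxifen and 29.8, 31.4, 31.1, 32.5 and 29.9 CPM with raloxifene. Of the treated libraries 8 were above the highest vehicle library, and the log2 fold change was 0.35 ± 0.077 (SE). Manba, which encodes lysosomal beta-mannosidase, had 12.7 to 18.3 CPM in vehicle and 11.6 to 14.6 CPM after treatment, with a log2 fold change of -0.49 ± 0.115 (SE).

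Tob2, an antiproliferative regulator of mRNA turnover, was at 22.6 to 29.8 CPM in vehicle and 15.4 to 21 CPM in the treated libraries, which did not overlap. Its log2 fold change was -0.42 ± 0.109 (SE; adjusted p = 0.226, edgeR). Among the other lower genes were Stk40, a kinase-like protein gene, at -0.29, Plekhg3, a guanine nucleotide exchange factor, at -0.28, and Phldb1 at -0.3. Klhl21, an adaptor of a ubiquitin ligase, was at -0.3 and Eml2, a microtubule-associated protein gene, at -0.22. Clk1, a splicing factor kinase, was at -0.26 with the class term and at 0.01 without it. The other higher genes were Fkbp3, a nuclear immunophilin, at 0.3, Smndc1, a splicing factor, at 0.38, and Hnrnpa2b1, an RNA-binding protein, at 0.15. Dzip3, a ubiquitin ligase, was at 0.25, and Cox7c, a subunit of cytochrome c oxidase, at 0.22. All of these values are pooled log2 fold changes with the class term. Both drugs had the same sign for each of the 20 by the way they were chosen.

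**Figure D2:**
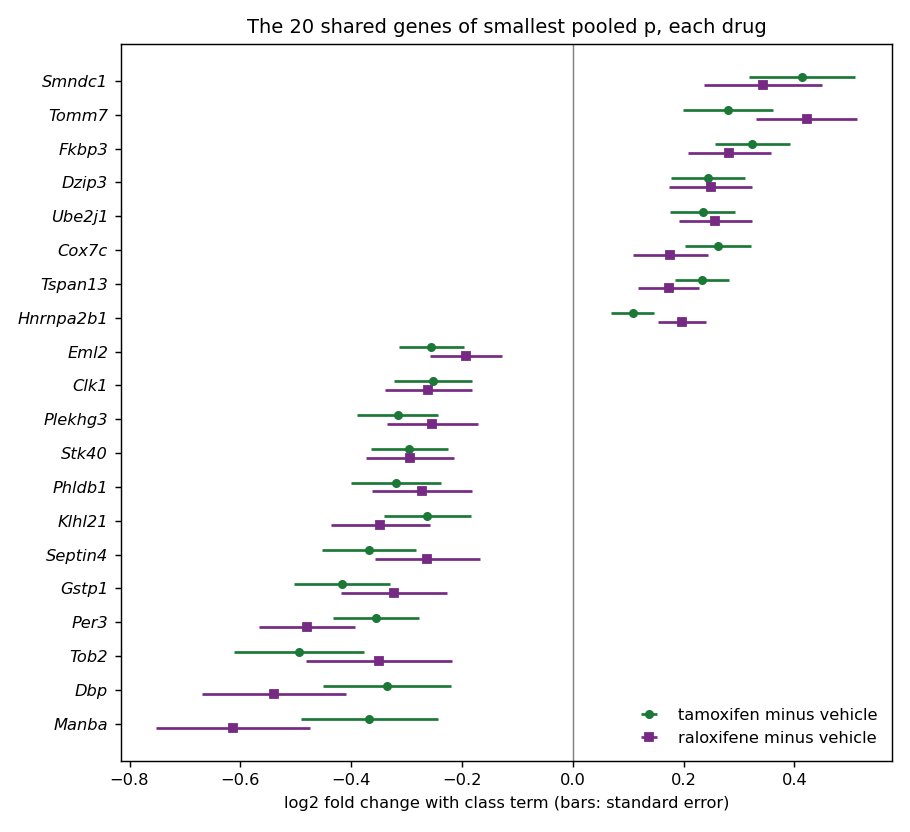
Log2 fold change with the class term (x axis) of the 20 shared genes of smallest pooled p (y axis), with circles for tamoxifen and squares for raloxifene, each minus vehicle, and bars of 1 SE. Manba had -0.37 with tamoxifen and -0.61 with raloxifene, and Stk40 had -0.29 with each.

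For each gene both drugs could be set side by side within the same fit. Tested against each other, the drugs had 0 genes (0%) called by edgeR and 6 by DESeq2. An unadjusted p under 0.05 was reached by 587 genes (4.07%), 1 of the 20 among them. The tamoxifen minus raloxifene log2 difference was 0.12 for Per3, with a 95% interval from -0.03 to 0.28. It was -0.09 for Gstp1 (-0.27 to 0.08) and -0.02 for Ube2j1 (-0.14 to 0.09). It was 0.25 for Manba (-0.00456 to 0.5) and 0.06 for Tspan13 (-0.04 to 0.16). The doses differ, and these intervals do not show that the drugs act alike.

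Across the 12 alternative fits and the 15 fits that each left out 1 library, 12 genes kept an unadjusted p under 0.05 in 1 direction in all 27, and 11 of them were shared by both drugs. These 11 were Per3, Gstp1, Manba, Tob2, Ftl1 and Abcc4, all lower, and Tomm7, Ube2j1, Tspan13, Dnaja1 and Hectd2, all higher. The twelfth gene was left out here because raloxifene or tamoxifen alone missed that level. Of the 27 fits, that of the high class alone set only tamoxifen against vehicle, since this class held no raloxifene library. Dnaja1, an Hsp40 co-chaperone, had 99.7, 99.8, 103, 114 and 107 CPM in vehicle. It had 116, 113, 154, 138 and 144 CPM with tamoxifen and 128, 143, 133, 121 and 147 CPM with raloxifene, with a log2 fold change of 0.18 ± 0.05 (SE; adjusted p = 0.273, edgeR). All but 1 treated library were above the highest vehicle library, which was of the low class. Hectd2, a ubiquitin ligase, had 33.7, 31.5, 32.3, 42.5 and 36.8 CPM in vehicle. It had 41.1, 36.3, 61.7, 57.8 and 57.6 CPM with tamoxifen and 51.2, 53.2, 55.7, 53.8 and 68.5 CPM with raloxifene. Its levels moved with class too: the high-class means were 38.7 CPM in tamoxifen and 33.6 CPM in vehicle, the low-class mean was 57.4 CPM after treatment, and the low-class vehicle library was at 42.5 CPM. Its log2 fold change was 0.26 ± 0.072 (SE). Ftl1, the ferritin light chain that stores iron, had 55.5 to 71.7 CPM in vehicle and 45.4 to 64.6 CPM after treatment, with a log2 fold change of -0.16 ± 0.047 (SE). The ferritin light chain has near-identical copies in rodent genomes, so its counts are uncertain. Abcc4, an efflux transporter of cyclic nucleotides and prostaglandins, had 17.6 to 20.8 CPM in vehicle and 8.67 to 18.3 CPM after treatment, with a log2 fold change of -0.4 ± 0.133 (SE). Hectd2, Ftl1 and Abcc4 were chosen after their values were seen.

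The same pooled libraries were then compared with references that do not involve vehicle. Against sham edgeR called 1 gene (0.00694%), Rims3, a regulator of synaptic vesicle exocytosis, which was lower in the receptor modulator libraries (log2 fold change -0.94, adjusted p = 0.0427). Rims3 means were 22.5 ± 4.3 CPM in sham, 16 ± 4.83 in vehicle, 10.8 ± 1.53 with tamoxifen and 11.1 ± 1.15 with raloxifene (SD, n = 5 each), and the vehicle mean holds 1 library at 24.4 CPM. With 1 library left out, edgeR called 0 genes without sham 1 or 2, tamoxifen 1 or raloxifene 1, 4 or 5, and it called 7 without sham 3 and 64 without sham 4. Against estradiol the edgeR test called 0 genes (0%) and DESeq2 called 9, and 1191 genes reached an unadjusted p under 0.05. Against the pooled aromatase inhibitors edgeR called 0 (0%) and DESeq2 called 6, and 829 genes reached that unadjusted level.

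The 11 genes differed in how they stood against those references. Per3 had 46.9 ± 3.87 CPM in sham, 47.8 ± 2.29 with estradiol, 52.9 ± 2.64 with exemestane, 49.8 ± 3.9 with anastrozole and 61.1 ± 4.49 in vehicle (SD, n = 5 each), so vehicle had the highest mean of the 7 groups. The receptor modulators differed from sham by -0.05 (95% interval -0.21 to 0.11) and from estradiol by -0.08 (-0.24 to 0.09) on the log2 scale. Against the same 5 vehicle libraries Per3 also fell by 0.37 in sham (adjusted p = 0.0466, edgeR, log2 scale) and by 0.34 with estradiol (adjusted p = 0.0388, edgeR), comparisons in which 0.0416% and 0.298% of all genes were called. Gstp1 too had its highest mean in vehicle, with 63.7 ± 2.34 CPM there and group means of 47.5 to 56.5 CPM in the other 6 groups. It differed from sham by 0.05 (-0.13 to 0.23) and from estradiol by -0.01 (-0.19 to 0.16), and Dbp differed from sham by 0.13 (-0.11 to 0.37). Dnaja1 differed from sham by 0.01 (-0.1 to 0.12) and from estradiol by 0.0029 (-0.11 to 0.11).

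Hectd2 had another pattern, with means of 31.8 ± 2.71 CPM in sham and 32.1 ± 2.48 CPM with estradiol, beside 35.4 ± 4.47 CPM in vehicle (SD, n = 5 each). The receptor modulator libraries were above sham by 0.29 (95% interval 0.13 to 0.45), above estradiol by 0.28 (0.12 to 0.44) and above the aromatase inhibitors by 0.18 (0.08 to 0.29) on the log2 scale with class, none of which passed adjustment. All sham and estradiol libraries were of the high class. Fkbp3 was likewise above each by 0.14, 0.24 and 0.17, and Plekhg3 was below each by 0.17, 0.24 and 0.11. Against the shared vehicle libraries, all 20 genes of smallest pooled p had the same sign in sham, estradiol, exemestane and anastrozole as with the receptor modulators. An unadjusted p under 0.05 went with it for 10, 13, 17 and 11 of them. The 20 were chosen by their distance from these vehicle libraries, which favours the same sign in every other group. These counts are therefore no separate support. Of the same 20, set directly against the references, 11 kept the direction at an unadjusted p under 0.05 against sham, 5 against estradiol and 12 against the aromatase inhibitors. Of all genes, with no choice by p, 10.3%, 8.26% and 5.75% reached that level in either direction. The 20 were chosen with the same treated libraries that enter each of these comparisons, which favours a kept direction. The counts of 11, 5 and 12 are therefore no separate support either, and their distance from the shares of all genes was not tested.

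**Figure D3:**
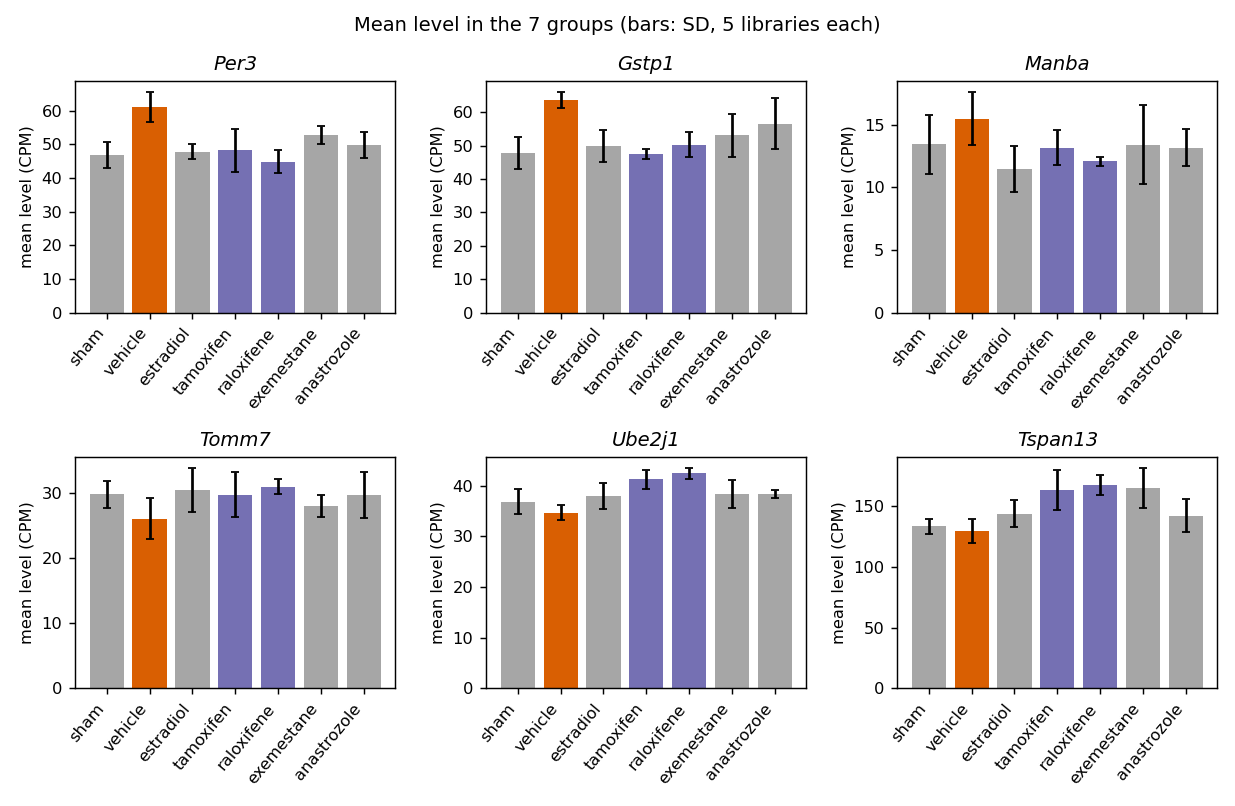
Mean level in CPM (y axis, from 0; bars of 1 SD, 5 libraries each) of Per3, Gstp1, Manba, Tomm7, Ube2j1 and Tspan13 in the 7 groups (x axis), with vehicle in orange and the receptor modulators in purple. Vehicle has the highest mean of the 7 for Per3, Gstp1 and Manba and the lowest for Tomm7, Ube2j1 and Tspan13.

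**Figure D4:**
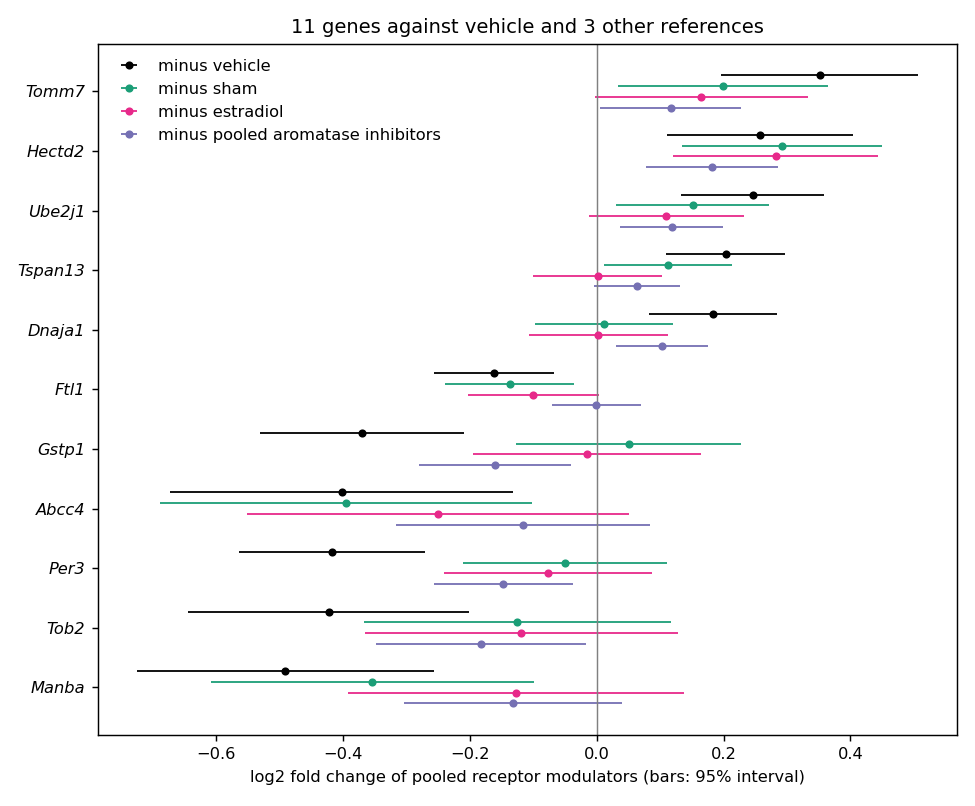
Log2 fold change of the pooled receptor modulators (x axis; bars are 95% intervals) for 11 genes (y axis) against vehicle, sham, estradiol and the pooled aromatase inhibitors. For Hectd2 all 4 intervals lie above 0, and for Per3 and Gstp1 the intervals against sham and estradiol span 0.

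The estrogen receptor genes and classical estrogen targets did not pass the test. Esr1 was at 2.21 ± 0.481 CPM in vehicle, 2.77 ± 0.447 with tamoxifen and 2.67 ± 0.844 with raloxifene (SD, n = 5 each), with a pooled log2 fold change of 0.3 ± 0.284 (SE). Esr2 was at 1.31 ± 0.418 CPM in vehicle, 1.06 ± 0.393 with tamoxifen and 0.581 ± 0.341 with raloxifene, and its groups overlapped. Its log2 fold change was -1.08 ± 0.401 (SE; adjusted p = 0.512, edgeR), with -0.57 for tamoxifen and -1.6 for raloxifene, at levels near 1 CPM where depth limits the estimate. Pgr, the progesterone receptor and a standard estrogen target, was at 19.4 to 26.7 CPM in vehicle and 19.8 to 26.8 CPM after treatment, a log2 fold change of 0.08 ± 0.096 (SE). The membrane receptor gene Gper1 was at 0.13 ± 0.419 and aromatase, Cyp19a1, at 0.16 ± 0.405. Of 18 tested steroid receptor and aromatase genes 3 were higher at an unadjusted p under 0.05, beside 4.25% of all genes. Among them were the membrane progesterone-binding proteins Pgrmc1 at 0.13 and Pgrmc2 at 0.12. Esr2 was the 1 lower gene. None of the 19 tested estrogen-responsive genes had an unadjusted p under 0.05 in either direction, and their median was -0.04.

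Late steps of cholesterol synthesis are of interest because tamoxifen and raloxifene are known to bind sterol isomerase and reductase enzymes. None of 9 tested genes of these steps had an unadjusted p under 0.05, and the list median was 0.03. The log2 fold change was 0.08 ± 0.141 (SE) for Ebp, the sterol isomerase, and 0.01 ± 0.094 for Dhcr7, a sterol reductase. Of 16 genes of early sterol synthesis and uptake 1 was higher at that level, a share near the 4.25% of all genes. It was Stard4, a cholesterol carrier, at 0.3 ± 0.097 (SE), with 0.19 for tamoxifen and 0.41 for raloxifene.

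Genes of Hsp90 and its partners had more positive than negative values. Of 15 tested genes 13 had a positive value, as did 51.2% of all genes, and 8 were higher at an unadjusted p under 0.05, beside 4.25% of all genes, and 0 were lower, with a list median of 0.13. The median was 0.16 with tamoxifen and 0.08 with raloxifene, and Dnaja1 was the only member that reached that level in each drug. Hsp90aa1, the inducible Hsp90, had 787 to 1040 CPM in vehicle and 849 to 1390 CPM after treatment, with a log2 fold change of 0.16 ± 0.06 (SE). Hsph1 and Hspa4, nucleotide exchange factors of Hsp70, were at 0.12 ± 0.04 and 0.11 ± 0.037, and Fkbp4, the immunophilin of steroid receptor complexes, at 0.14 ± 0.049. Against estradiol Fkbp4 was at -0.13 (95% interval -0.24 to -0.02). In the unfolded protein response list 3 of 22 genes were higher and none lower, and those shared by both drugs were the endoplasmic chaperones Hsp90b1, at 0.16, and Dnajb11, at 0.2. With 1 library left out, 1 to 7 genes of this list were higher at that level. The chaperonin genes, a family looked at after values were seen, were positive in 8 of 8, with Cct6a and Cct8 both at 0.17 and Cct2 at 0.12. Of 30 Ube2 ubiquitin-conjugating enzyme genes, also looked at afterwards, 24 were positive and 7 were higher at that level, with Ube2e3 at 0.22, Ube2a at 0.2 and Ube2n at 0.18, and 1 was lower. The Hsp90 count was 5 to 10 with 1 library left out, and it was 5 without vehicle replicate 4 and 4 in the low class alone.

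Nuclear genes of the respiratory chain also had more higher than lower members. Outside complex I, 8 of 39 were higher at an unadjusted p under 0.05, beside 4.25% of all genes, and 0 lower. Of the 39, 31 were positive, beside 51.2% of all genes. The median was 0.06 with the class term and -0.03 without it. The summed list, not set apart by class, overlapped between groups. It was at 4190 to 4520 CPM in vehicle, 4250 to 4670 with tamoxifen and 4140 to 4410 with raloxifene. Summed complex I genes overlapped too, at 1720 to 1860, 1770 to 1920 and 1720 to 1830 CPM in the same order. Cox5a, a subunit of cytochrome c oxidase, had 60.6 to 70.3 CPM in vehicle and 70.5 to 80 CPM after treatment without overlap, with a log2 fold change of 0.21 ± 0.06 (SE). Cox17, its copper chaperone, was at 0.36 ± 0.106 and Atp5f1c, a subunit of ATP synthase, at 0.11 ± 0.044. Of 35 complex I genes 30 were positive and 4 higher at that level, with a median of 0.06 with the class term and -0.06 without it. In the citric acid cycle 4 of 20 were higher, beside the same 4.25%, and none lower. Among them were Idh3b, a subunit of isocitrate dehydrogenase, at 0.15 ± 0.046 and Dlat, a subunit of pyruvate dehydrogenase, at 0.16 ± 0.058. With 1 library left out, the count of higher genes was 1 to 5 for complex I and 1 to 5 for the citric acid cycle. None of the 13 mitochondrially encoded genes had an unadjusted p under 0.05, and their median was 0.07. The share of mitochondrially encoded transcripts, given above, was lower in treated than in vehicle libraries of the high class and higher in those of the low class, and its part in these values was not tested. The count outside complex I was 4 without tamoxifen replicate 1, 5 on the 15 libraries alone and 3 in the low class alone.

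Myelin genes made up the list with the lowest median among those of 10 or more tested genes apart from the choroid plexus. Of 15 tested genes of oligodendrocytes and myelin, 14 were negative and 1 positive, where 51.2% of all genes were positive. In the list 8 were lower at an unadjusted p under 0.05, beside 3.37% of all genes, and none was higher. The median was -0.26, with -0.24 for tamoxifen and -0.22 for raloxifene. In bulk tissue, fewer cells of a type and less RNA per cell cannot be told apart. Cnp, a myelin phosphodiesterase, was at 402, 358, 365, 409 and 372 CPM in vehicle. It was at 338, 261, 249, 276 and 317 CPM with tamoxifen and 288, 267, 268, 297 and 296 CPM with raloxifene. The groups did not overlap, and the log2 fold change was -0.34 ± 0.092 (SE; adjusted p = 0.273, edgeR). Mbp, myelin basic protein, had 3380 to 3840 CPM in vehicle and 2200 to 3240 CPM after treatment, also without overlap, and a log2 fold change of -0.32 ± 0.094 (SE). Gjc3, a glial gap junction gene, was at -0.45 ± 0.163 and Fa2h, which hydroxylates myelin lipids, at -0.32 ± 0.122, and these 4 were the members that reached that level in each drug. Mag, an adhesion protein of myelin, was at -0.26, Mobp at -0.29 and Opalin at -0.32. The summed list was at 6600 to 8110 CPM in vehicle, 5180 to 6960 with tamoxifen and 5550 to 6560 with raloxifene. Against the other references the list median was -0.13 for sham, 0.1 for estradiol and 0.03 for the aromatase inhibitors. Mbp differed from estradiol by -0.04 (95% interval -0.25 to 0.17) and Cnp from sham by -0.03 (-0.24 to 0.18). The count of 8 was 2 without vehicle replicate 4 and 0 without the libraries above 500 CPM of Ttr. It was 3 in the high class alone, where only tamoxifen could be set against vehicle.

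**Figure D5:**
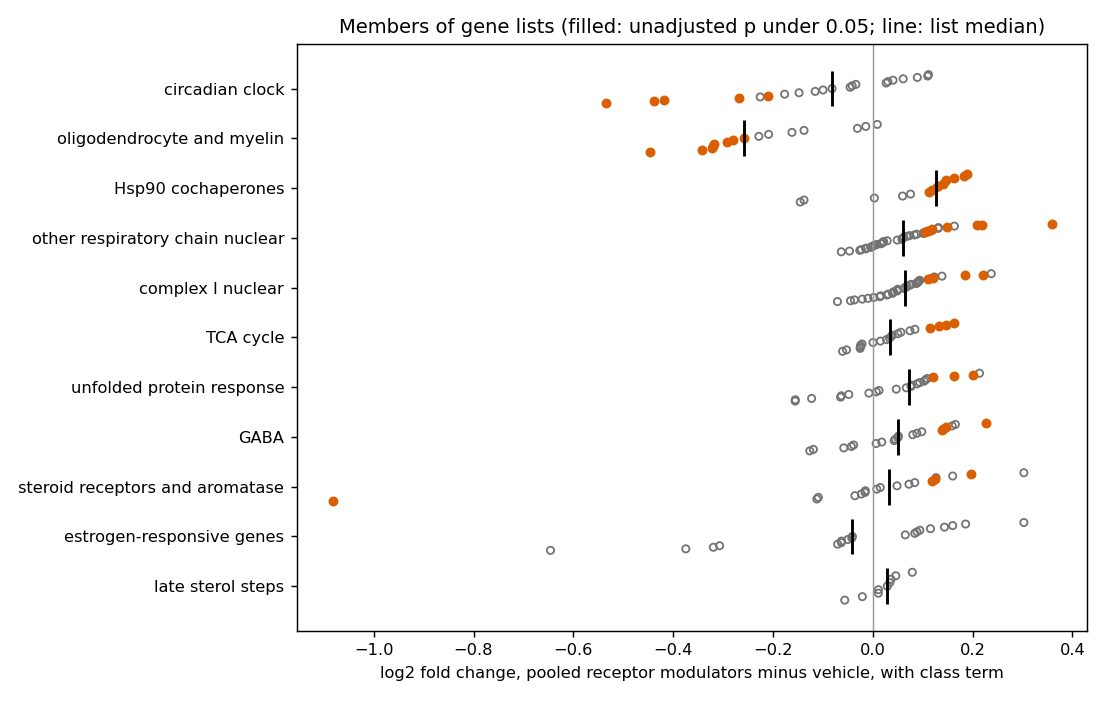
Log2 fold change of the pooled receptor modulators minus vehicle with the class term (x axis) for each tested member of 11 gene lists (rows). Filled points have an unadjusted p under 0.05, and vertical lines are list medians. Filled points lie below 0 in the clock and myelin rows and above 0 in the Hsp90, respiratory chain and citric acid cycle rows.

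In the neuronal lists, counts at an unadjusted p under 0.05 stand beside 4.25% of all genes higher, 3.37% lower and 51.2% positive. In the GABA list 4 of 20 were higher and 0 lower, and the count of higher genes was 1 to 7 with 1 library left out. Gabra5, a receptor subunit known for extrasynaptic inhibition in the hippocampus, was the 1 shared by both drugs. It had 97.1 to 123 CPM in vehicle and 126 to 164 CPM after treatment without overlap, with a log2 fold change of 0.23 ± 0.064 (SE; adjusted p = 0.281, edgeR), and it was above sham by 0.28 (95% interval 0.14 to 0.42). In the neurotrophin and secretory granule list 3 of 19 were higher and 17 were positive. Bdnf, a neurotrophin, had 20.5 to 29.4 CPM in vehicle and 29.2 to 41.1 CPM after treatment, with 9 of 10 treated libraries above the highest vehicle library and a log2 fold change of 0.26 ± 0.1 (SE). Vgf, a granule protein, was at 0.17 ± 0.077 against vehicle but at -0.38 (-0.54 to -0.21) against estradiol and at -0.23 (-0.4 to -0.07) against sham. The sign of Vgf against vehicle turned without the class term, where it was -0.17. Among 27 synaptic vesicle genes 3 were higher and 1 lower, and those shared were Syp, at 0.13 ± 0.053, and Rims3, at -0.47 ± 0.158.

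Markers of other cell types were read the same way, and the part of any cell type in the results above was not tested. Of 15 microglial genes 2 were lower at an unadjusted p under 0.05, beside 3.37% of all genes. In that list 7 were positive and 8 negative around a median of -0.0015, where 51.2% of all genes were positive. Trem2, 1 of the 2 lower genes and a microglial lipid receptor, had 4.13 to 7.27 CPM in vehicle and 2.18 to 4.01 CPM after treatment without overlap. Its log2 fold change was -0.56 ± 0.176 (SE; adjusted p = 0.351, edgeR). Summed microglial markers overlapped, at 258 to 362 CPM in vehicle, 262 to 301 with tamoxifen and 273 to 317 with raloxifene. None of 16 astrocyte genes had an unadjusted p under 0.05. Of 10 pericyte and smooth muscle genes 3 were lower at that level and 0 higher, with 4 positive and a median of -0.06. Of 8 thalamus and habenula genes 2 were lower and 0 higher, with 2 positive and a median of -0.17. The sums of both lists overlapped between groups. Of 11 tested genes each, the endothelial and oligodendrocyte precursor lists had 1 lower, and the interneuron and meninges lists 1 higher. All 13 choroid plexus genes were negative with none at that level, and their sum ran from 79.7 to 4330 CPM over the 15 libraries. Summed blood markers were 58.5 to 125 CPM in vehicle, 27.6 to 68.5 with tamoxifen and 31.2 to 49.7 with raloxifene, and neither of the 2 tested had an unadjusted p under 0.05.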

How the data were processed

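Hippocampal RNA of 35 rats was sequenced. Per the submitters' processing notes the authors used Salmon and DESeq2; versions and build are not given in the sources used here. The deposited expected counts (estimated counts per gene, held as whole numbers) were the basis of every test. The deposited signal table, counts which the authors divided by factors that differ by gene and library, served only to recover those factors for 1 alternative. Of 15059 deposited genes, each with counts in at least 8 libraries, 14411 passed filterByExpr. edgeR 4.0.16 (R 4.3.3) fitted a robust quasi-likelihood model with TMM scaling to all 35 libraries, with 7 groups and the Rn7sl1 class, and tested the mean of the tamoxifen and raloxifene coefficients minus vehicle with Benjamini-Hochberg adjustment. Depth was 6061829 to 10349372 counts in the 15 libraries, and the median standard error of a log2 fold change was 0.102. DESeq2 1.42.0, other normalizations and covariates, subsets of libraries and leaving out each library were the alternatives.

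Named genes were those called, the 20 of smallest pooled p shared by both drugs with at least 1 CPM, up to 4 called or otherwise 2 members of smallest p per list, and a fixed set. A choice of these is printed, and some genes that the rule names are not reported here. Ciart, Per1, Gjc3, Fa2h, Mobp, Opalin, Mag, Hsp90aa1, Hsph1, Hspa4, Cox17, Atp5f1c, Pgrmc1, the Cct and the other Ube2 genes, Hectd2, Ftl1 and Abcc4 were named after their values were seen. Members and lists were chosen with earlier results of these data known. Of the symbols, 13091 matched RefSeq, and 1132 genes had only an Ensembl identifier.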

Additional observations from a re-analysis of the deposited data

Results flagged for a closer look

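Within each group of 5 libraries, the highest or lowest library was compared with the other 4 by Dixon's ratio, for every gene named and for the library measures. Of 225 groups 15 held a library apart from the rest (6.67%), and chance gives about 1 in 20. Vehicle replicate 4, the vehicle library of low Rn7sl1 class, accounted for 6 of them. It had the lowest Rn7sl1 level, at 33500 CPM beside 46700 to 47600 CPM, and the lowest Rn7sl1 share, at 3.44% beside 4.68 to 4.84%. The class is set by that share, so both of these flags restate the class of this library. Vehicle replicate 4 was also lowest for Cox5a, at 60.6 CPM beside 68.2 to 70.3 CPM, and for Ftl1, at 55.5 CPM beside 69.3 to 71.7 CPM. It was highest for Hspa4, at 271 CPM beside 234 to 242 CPM, and for Hsp90b1, at 341 CPM beside 266 to 284 CPM. Other vehicle libraries apart were replicate 2 for Per3, lowest at 53.1 CPM beside 62.3 to 64 CPM, and replicate 3 for Rims3, highest at 24.4 CPM beside 12.6 to 15.4 CPM.

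Among tamoxifen libraries, replicate 4 was highest for Ciart, at 5.89 CPM beside 2.99 to 3.79 CPM, and replicate 1 was lowest for Abcc4, at 8.67 CPM beside 15.7 to 18.3 CPM. Among raloxifene libraries, replicate 5 was highest for Clk1 (89.1 CPM beside 71.9 to 73.8), for Cct8 (139 CPM beside 123 to 127) and for Hectd2 (68.5 CPM beside 51.2 to 55.7). Raloxifene replicate 3 was lowest for Mag, at 125 CPM beside 143 to 147 CPM. Raloxifene replicate 4 was highest for Gper1, at 2.64 CPM beside 0.627 to 0.697 CPM.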

How the results depend on the processing

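The number of calls moved with the class term, the tool and the libraries fitted. Without class 2262 genes were called in the pooled comparison and 1645 were shared by both drugs, and with the Rn7sl1 share as a continuous covariate 1034 and 998. DESeq2 called 31 and 31, the 15 libraries alone 2 and 2, the low class alone 74 and 74 (its single vehicle library is assumed to vary like the other groups), and the authors' factors as offsets and the fit without libraries above 500 CPM of Ttr (added after seeing the data) 0 and 0. The high class alone holds no raloxifene library, and its 2 tamoxifen libraries against its 4 vehicle libraries called 0. Against estradiol the counts were 6035 without class, 69 with the continuous share, 9 with DESeq2, 2 with Ttr as a covariate and 2 without the Ttr-rich libraries. Against sham they were 4864, 782, 31 and 2 in that order, 3 with the offsets and 0 without the Ttr-rich libraries. Against the aromatase inhibitors DESeq2 called 6 and the fit without Ttr-rich libraries 11. With 1 library left out the counts were 0 to 2 pooled, 0 to 2 shared, 0 to 5 against estradiol, 0 to 64 against sham and 0 to 1 against the aromatase inhibitors.

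Some log2 fold changes turned sign. Without class, Nr1d2 was 0.09193, Clk1 0.008782, Vgf -0.17 and Rn7sl1 -0.19. With the continuous share Vgf was -0.009656, and in the low class alone Nr1d2 was 0.03276 and Rn7sl1 -0.001118. The cause was not tested. DESeq2's size factors in edgeR, no filter on low counts and removal of Rn7sl1 left the pooled count at 1. Per3 was called in 7 of the 12 alternatives. No paired analysis was possible because the labels give no replicate numbers that tie libraries across groups.

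The low class holds 1 vehicle library and the high class 2 treated ones, so within-class values rest on few libraries. Genes near 1 CPM, such as Esr2 and Gper1, are limited by depth.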
